A study of Homo sapiens with 22 samples.

Results

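The 10 genes BAZ1B, BAZ1A, BAZ2A, BAZ2B, SMARCA5, SMARCA1, BPTF, RSF1, CECR2 and CHRAC1 encode the BAZ (bromodomain adjacent to zinc finger) proteins and the subunits of the ISWI chromatin remodelers. They were taken by symbol from the raw count tables of RNA-Seq in HUDEP-2 cells, where all 10 are present among 59087 gene names in both tables. In each experiment 8 of the 10 had enough reads to be tested. The remaining pair, SMARCA1 and CECR2, had hardly any reads.

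ISWI remodelers slide and space nucleosomes with the energy of ATP. Each complex is built on an ATPase, SMARCA5 (SNF2H) or SMARCA1 (SNF2L), and a large partner that sets where and how it works. BAZ1B (WSTF) with SMARCA5 forms WICH, which works at replicating and transcribed chromatin, and BAZ1B is also a tyrosine kinase of the histone variant H2A.X. BAZ1A (ACF1) is its closest paralog and forms ACF with SMARCA5, or CHRAC when the small histone-fold subunits CHRAC1 and POLE3 join. BAZ2A (TIP5) forms NoRC, the silencing complex of ribosomal RNA genes, and BAZ2B is its less studied paralog. RSF1 forms RSF with SMARCA5, while BPTF (NURF) and CECR2 (CERF) are known as partners of SMARCA1. In erythroid cells, which condense their nucleus before they expel it, these factors are of interest as regulators of chromatin structure.

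HUDEP-2 cells are human erythroid progenitors kept dividing by viral genes that doxycycline switches on, and doxycycline was present in both the expansion and the maturation medium. There were 2 WT and 3 H2A.X KO libraries in the H2A.X experiment, and 3 of each genotype in that on BAZ1B, each at D0 (expansion) and D6 (day 6 of maturation), 22 libraries in all. KO lines were homozygous deletions made with a pair of lentiviral CRISPR/Cas9 vectors that carry GFP and mCherry, and each KO replicate was a subclone grown after limiting dilution. WT subclones were, in the study's account, taken through the procedures used for KO lines. BAZ1B KO cells kept H2A.X, and H2A.X KO cells kept BAZ1B. Depth was 33199408 to 41273244 counts per library in the BAZ1B experiment and 11910141 to 21013004 in the H2A.X experiment. The label of erythroid cells held in all groups. All 11 erythroid marker genes, such as HBB and ALAS2, passed the filter on low counts in each experiment. Their sum was 6740 to 62500 CPM (counts scaled to equal library totals), whereas 5 lymphoid markers summed to at most 0.867 CPM. The erythroid sum was 6740 to 7420 CPM in BAZ1B WT and 7770 to 8450 CPM in KO at D0. At D6 it was 36400 to 40700 CPM in WT and 30600 to 34700 CPM in KO. In the H2A.X experiment it was 25000 to 29700 CPM in WT and 13400 to 17700 CPM in KO at D0. At D6 the H2A.X groups overlapped, at 34700 to 50900 CPM in WT and 42300 to 62500 CPM in KO. Mast cell and eosinophil markers, of which 6 of 8 passed, summed to 501 to 532 CPM in BAZ1B WT at D0 and to 28.8 to 38.4 CPM at D6. In BAZ1B KO they summed to 476 to 655 CPM at D0 and 11.3 to 36.7 CPM at D6. In the H2A.X experiment, where 5 of 8 passed, they summed to 111 to 131 CPM in WT and 233 to 472 CPM in KO at D0, and to 119 to 221 CPM in WT and 2.71 to 13.9 CPM in KO at D6. Megakaryocyte markers, of which 2 of 5 passed, differed between genotypes without overlap, other than in the H2A.X experiment at D6. Their sum was 78.1 to 83.6 CPM in BAZ1B WT and 37.6 to 74.7 CPM in KO at D0, and 20.7 to 23.9 and 5.89 to 11.4 CPM at D6. In the H2A.X experiment it was 10.5 to 15.1 CPM in WT and 41.5 to 88.9 CPM in KO at D0, and 10.3 to 15.3 and 9.99 to 40.8 CPM at D6. Neutrophil and monocyte markers, of which 2 of 6 passed, summed to at most 7.32 CPM. The part of these markers in the results was not tested. In bulk RNA, fewer cells with a transcript and less of it per cell cannot be told apart.

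The deleted stretch of BAZ1B matters for reading its counts. BAZ1B is a minus-strand gene of chromosome 7 (GRCh38, 73440406 to 73522293), with 20 exons in its canonical transcript of 6115 bp. The deletion ran, according to the methods, from before the start codon to past the first exon. That exon spans 73521827 to 73522293 and holds 467 bp, of which 107 bp are coding. The other exons hold 5648 bp, or 92.4% of the transcript, so a transcript without part or all of the first exon would still be counted. The counts are thus no check of the knockout protein. The coding part of the exon (chr7:73521827-73521933, minus strand) is shown because the described deletion would remove it, with the start codon in capitals.
BAZ1B exon 1, coding part: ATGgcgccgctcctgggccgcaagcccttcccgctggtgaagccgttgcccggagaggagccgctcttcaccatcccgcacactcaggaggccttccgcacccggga
The RefSeq table (GRCh38.p14) gave a promoter for 7 of the 10 genes. The 250 bases before the BAZ1B start, chr7:73522294-73522543 on the minus strand, are shown as the promoter of the targeted gene. They end at the first exon, and the methods place the start of the deletion before the start codon. A guide oligo listed in the supplement for this end carries ATGGC, the letters with which the coding part begins. Whether the promoter was left intact in KO was not tested. Capitals mark GGGCGG, the GC box, at 111 bases before the start, and CCAAT, the NF-Y box, at 74 bases and, as its reverse complement ATTGG, at 39 bases.
BAZ1B promoter: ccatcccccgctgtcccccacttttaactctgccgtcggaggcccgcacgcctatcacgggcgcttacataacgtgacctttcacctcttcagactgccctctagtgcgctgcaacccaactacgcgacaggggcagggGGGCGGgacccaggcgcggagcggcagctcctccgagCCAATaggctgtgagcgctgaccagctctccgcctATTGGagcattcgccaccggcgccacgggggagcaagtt
On either strand, GGGCGG was found in 5 of the 7 promoters (BAZ1B, BAZ2A, BAZ2B, SMARCA5 and RSF1) and in 42.6% of 35116 promoters of the same length. CCAAT was found in that of BAZ1B alone among the 7, and in 32% of all.

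Levels between genes were compared as normalized counts per kb of the canonical transcript, where a normalized count is a count scaled to the mean effective library size of the experiment. In BAZ1B WT cells at D0, BAZ1B was the most abundant of the 10, with 1605 ± 17.2 normalized counts per kb (SD, n = 3). The ATPase SMARCA5 followed with 1059 ± 29.7 and the histone-fold subunit CHRAC1 with 938 ± 16.9. BAZ2A had 639 ± 20.5, BAZ1A 602 ± 13.3 and BPTF 551 ± 3.74, all per kb. RSF1 with 204 ± 8.63 and BAZ2B with 113 ± 3.95 were lowest. No neighbours in this order overlapped between libraries, and the order was unchanged at D6 in WT, where BAZ1B had 1508 ± 29.3 and SMARCA5 1341 ± 10.1 per kb. These orders rest on a single transcript model per gene. BAZ1A, BAZ2A, BAZ2B, SMARCA5 and BPTF share 2.84% to 9.92% of their 75-base stretches with overlapping antisense, neighbouring or pseudogene transcripts, whose reads the counting could split, while BAZ1B, RSF1 and CHRAC1 share none. No 75-base stretch is shared between any pair of the 10 genes.

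SMARCA5 was the ISWI ATPase whose transcripts were present, and SMARCA1, its paralog on the X chromosome, was near the limit of detection. The largest SMARCA1 count was 5 reads, in BAZ1B WT replicate 2 at D0, and the libraries with a read had 1 each otherwise: BAZ1B WT replicates 1 and 3 and KO replicate 1 at D0, and H2A.X KO replicate 2 at D0. CECR2 had 1 read in H2A.X WT replicate 2 at D6 and 0 in the other libraries. A count of 0 allows up to 3 counts, or 0.0727 to 0.0904 CPM in the BAZ1B and 0.143 to 0.252 CPM in the H2A.X experiment, which covers counting error only.

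**Figure D1:**
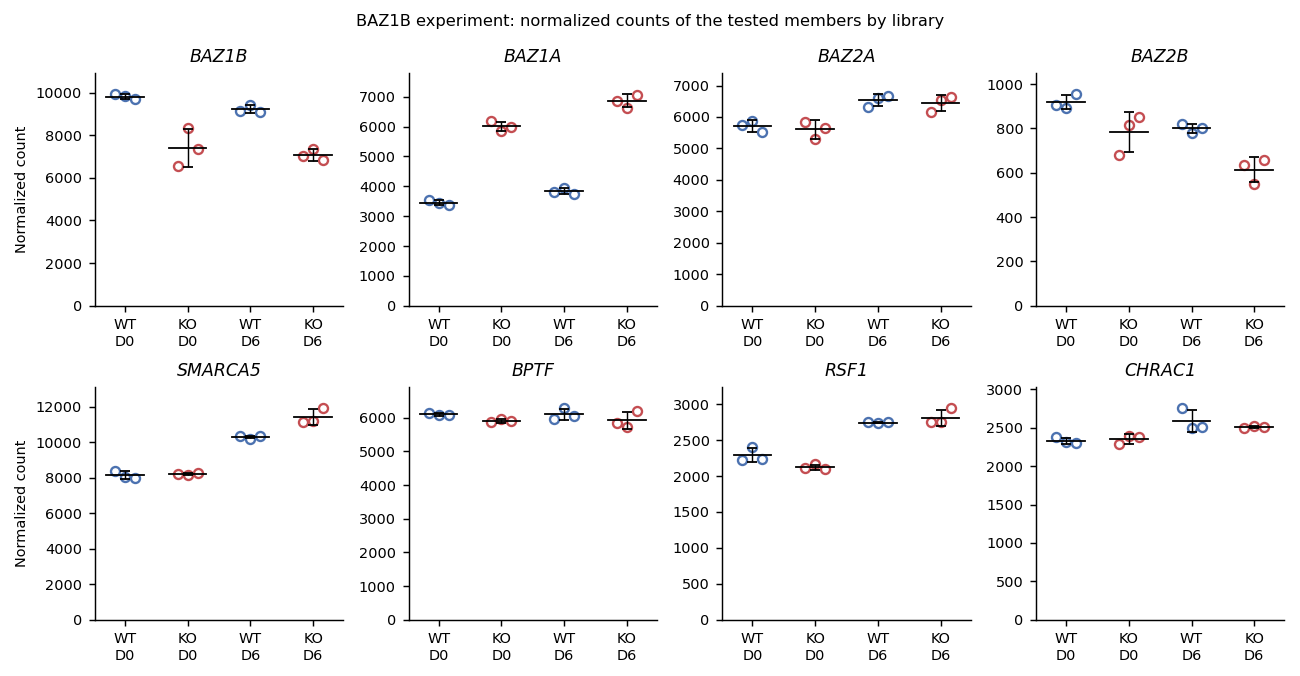
Normalized counts (vertical axis, from 0) of the 8 tested genes in the 12 libraries of the BAZ1B experiment, by genotype and day. Circles are libraries (blue WT, red KO), and black lines are the mean and SD of 3 libraries. BAZ1A is higher and BAZ1B lower in KO at both days with no overlap, from 3449 to 6002 and from 9813 to 7418 on average at D0.

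Loss of BAZ1B was compared with WT at each day to ask how the knockout changed the transcripts of the gene itself, its paralogs and its partners. BAZ1A rose by 1.74 times at D0 and 1.79 times at D6, and transcripts of BAZ1B fell to 0.756 and 0.767 of WT. At D6, BAZ2B also fell and SMARCA5 rose slightly. BAZ2A, BPTF, RSF1 and CHRAC1 passed the test at neither day.

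BAZ1A, the paralog of the deleted gene, had 3531, 3434 and 3380 normalized counts in WT replicates 1 to 3 at D0 and 6173, 5853 and 5980 in KO. At D6 it had 3823, 3945 and 3751 in WT and 6872, 6636 and 7071 in KO. All 6 KO libraries were above all 6 WT libraries, and the lowest KO library was far from the highest WT library. The log2 fold change was 0.80 (SE 0.0371, 95% interval 0.72 to 0.88, adjusted p = 7.93e-08) at D0 and 0.84 (SE 0.0371, 95% interval 0.76 to 0.92, adjusted p = 4.69e-08) at D6. Among 13879 genes, ordered by p from the lowest, BAZ1A had place 5 at D0 and place 4 at D6. Under 20 alternative settings it ranged from 0.78 to 0.82 at D0 and from 0.81 to 0.85 at D6, and the adjusted p was at most 2.51e-05. BAZ1A lies on the minus strand of chromosome 14, from 34752731 to 34875647, and 4.4% of its 75-base stretches are shared with the antisense gene BAZ1A-AS1. Whether reads of that gene add to its counts was not tested, and none of its stretches is shared with BAZ1B.

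BAZ1B had 9913, 9823 and 9703 normalized counts in WT replicates 1 to 3 at D0 and 6556, 8349 and 7349 in KO. At D6 it had 9135, 9429 and 9104 in WT and 7037, 7377 and 6817 in KO. The groups did not overlap at either day, and the KO libraries of D0 were spread more widely (SD 899) than those of WT (SD 105). The log2 fold change was -0.40 (SE 0.0670, adjusted p = 0.00415) at D0 and -0.38 (SE 0.0672, adjusted p = 0.00250) at D6. Over its alternatives the value ranged from -0.50 to -0.32 at D0 and from -0.42 to -0.36 at D6, with adjusted p up to 0.0343 and 0.0123.

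Set against each other per kb, transcripts of both paralogs moved from an uneven to a nearly even ratio. In KO those of BAZ1B come from a deleted gene, so the share and sum of both paralogs describe transcripts, not protein. BAZ1A made up 27.1% to 27.5% of the sum of both in the WT libraries of D0 and 42.8%, 46.5% and 50.1% in KO. At D6 its share was 30.5% to 30.9% in WT, and in KO 50.9% ± 1.79 (SD, n = 3) with no overlap. The sum itself was 2207 ± 30.3 per kb in WT and 2261 ± 119 in KO at D0 (SD, n = 3 each; ratio 1.02, exact permutation test, two-sided, p = 0.6). At D6 the sum was 2178 ± 45.9 in WT and 2355 ± 8.62 in KO (ratio 1.08, exact permutation test, two-sided, p = 0.1). With 3 against 3 libraries this test cannot go below 0.1, which is also the p of both differences in share.

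**Figure D2:**
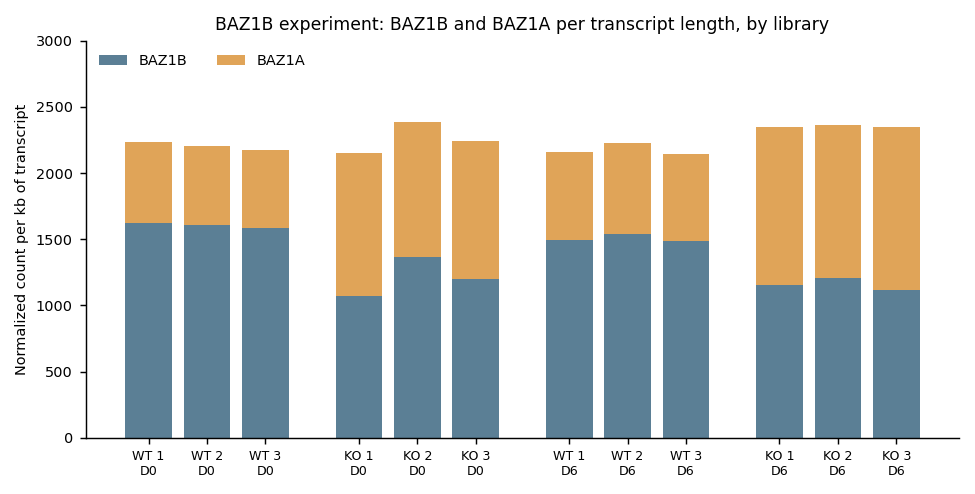
Normalized counts per kb of transcript of BAZ1B (blue) and BAZ1A (orange), stacked from 0, in each library of the BAZ1B experiment. Whole bars reach 2144 to 2237 in WT and 2150 to 2387 in KO, while the BAZ1A part is 27.1% to 30.9% of the bar in WT and 42.8% to 52.5% in KO.

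In all, 1 of the 8 tested genes was higher and 1 lower in KO at D0, where 3.88% of all 13879 genes were called at an adjusted p below 0.05, 1.25% as higher and 2.64% as lower. At D6, 2 were higher and 2 lower, where 12.8% of all genes were called, 6.87% as higher and 5.97% as lower. KO and WT did not overlap for 5 of the 8 at D0 and 4 of the 8 at D6, against 22.5% and 30.8% of all genes. The median log2 fold change of the 8 was -0.04 at D0 and -0.03 at D6, against 0.00 over all genes at both days. An unadjusted p below 0.05 was found for 4 of the 8 at each day, against 2131 and 3640 of all 13879 genes. None of the 8 passed a stricter cutoff, an adjusted p below 0.001 with an absolute log2 fold change above 1.5, by edgeR or DESeq2. Of all genes, 0.36% and 0.749% passed it in edgeR. The study defines its cutoff by a p-value below 0.001 and the same fold change, and read as an unadjusted p it was also passed by 0 of the 8 in edgeR, against 1.09% and 1.27% of all genes.

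BAZ2B had 908, 892 and 954 normalized counts in WT replicates 1 to 3 at D0 and 682, 817 and 851 in KO. At D6 it had 818, 780 and 802 in WT and 635, 549 and 656 in KO. The groups did not overlap at either day, but only D6 passed the test (log2 fold change -0.38, SE 0.0880, adjusted p = 0.0127), with -0.23 (SE 0.0860, adjusted p = 0.199) at D0. The difference between these days was itself not past the threshold (-0.15, adjusted p = 0.591).

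SMARCA5, the ATPase partner of BAZ1B, had 10363, 10216 and 10330 normalized counts in WT replicates 1 to 3 at D6 and 11141, 11197 and 11918 in KO. All 3 KO libraries were above WT, and the log2 fold change was 0.15 (SE 0.0361, adjusted p = 0.0166). This call was lost without WT replicate 2 (adjusted p = 0.072), WT replicate 3 (0.06) or KO replicate 3 (0.0691) of D6, and in a fit of the D6 groups alone (0.0563), with adjusted p between 0.00141 and 0.072 over its 20 alternatives. At D0 WT ranged from 7987 to 8398 and KO from 8142 to 8282, so the groups overlapped (log2 fold change 0.01, 95% interval -0.06 to 0.09, adjusted p = 0.905).

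Of the genes that passed at neither day, BAZ2A had log2 fold changes of -0.03 and -0.02, BPTF of -0.05 and -0.04, RSF1 of -0.11 and 0.04 and CHRAC1 of 0.02 and -0.05, at D0 and D6. Their 95% intervals lay within -0.20 and 0.13. RSF1 libraries did not overlap at D0, with 2230, 2401 and 2236 in WT and 2110, 2164 and 2101 in KO (adjusted p = 0.219).

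With these shifts the order per kb also changed. In KO at D0, BAZ1B (1213 ± 147), SMARCA5 (1069 ± 9.11) and BAZ1A (1048 ± 28.1) formed a run in which neighbours overlapped between libraries. In KO at D6, SMARCA5 was highest at 1486 ± 56.4 per kb, followed by BAZ1A (1197 ± 38.0) and BAZ1B (1157 ± 46.1), which overlapped. In WT, BAZ1A came after BAZ2A at both days.

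None of the 8 genes had a KO effect that differed between D6 and D0 in edgeR or DESeq2, where 2.47% of all genes were called. An unadjusted p below 0.05 was found for 2284 of all 13879 genes and for 2 of the 8. These were SMARCA5, whose effect was higher at D6 by 0.13 on the log2 scale (SE 0.0511, adjusted p = 0.210), and RSF1, higher by 0.14 (SE 0.0590, adjusted p = 0.246). For BAZ1A the difference was 0.04 with a 95% interval of -0.08 to 0.15.

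Of 14 further subunits and known partners of BAZ and ISWI complexes, none was called at D0 in BAZ1B KO by edgeR or DESeq2. There edgeR called 3.88% of all genes. An unadjusted p below 0.05 was found for 1 of the 14, against 2131 of all 13879 genes. At D6, where 12.8% of all genes were called, 2 of the 14 were higher and DESeq2 called 3, the 2 being POLE3, the partner of CHRAC1 in CHRAC (log2 fold change 0.17, adjusted p = 0.00588), and MYO1C, a nuclear myosin found with WSTF and SNF2H (0.16, adjusted p = 0.0174). Of 27 ATPases of other remodeler families none was called at D0 by either tool. Of these, 4 had an unadjusted p below 0.05, against 2131 of all 13879 genes. At D6, CHD3 of NuRD (0.22, adjusted p = 0.00419) and SMARCA2 of BAF (0.19, adjusted p = 0.0121) were higher and BTAF1, which removes TBP from DNA, was lower (-0.17, adjusted p = 0.0297), and DESeq2 called 4. No gene of either list had a fold change as large as that of BAZ1A among those called.

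**Figure D3:**
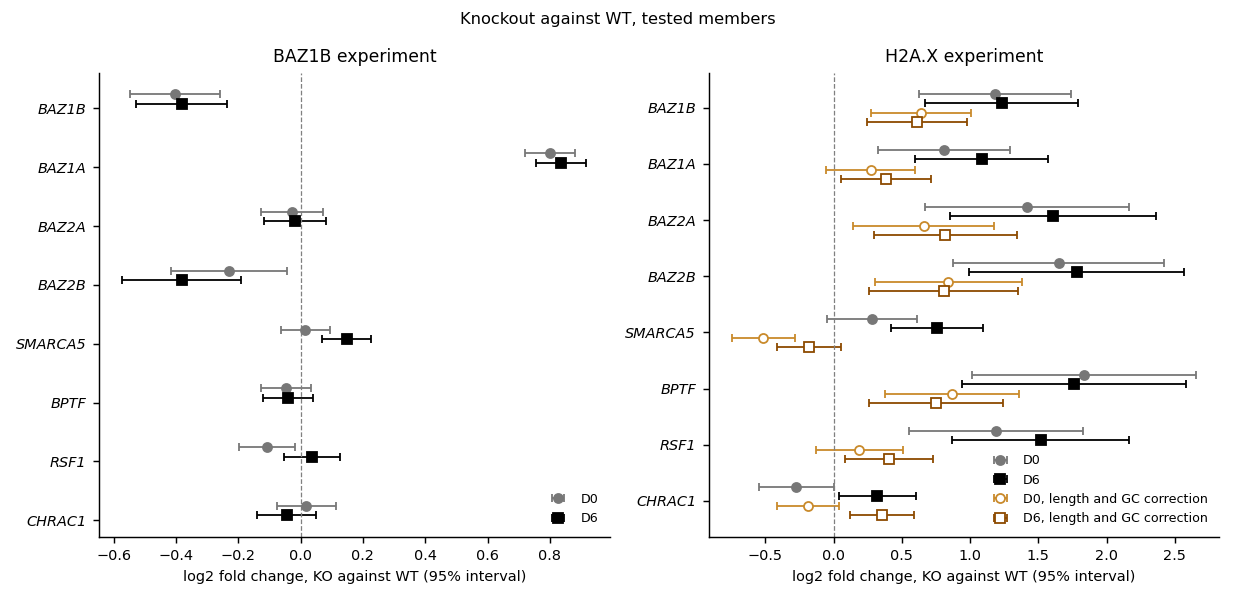
Log2 fold change of KO against WT (horizontal axis) with its 95% interval for the 8 tested genes, in the BAZ1B experiment (left) and the H2A.X experiment (right), on different scales. Grey circles are D0 and black squares D6, and open symbols at right are the same comparison after correction for transcript length and GC content. At left only BAZ1A lies far above 0, at 0.80 and 0.84. At right SMARCA5 moves from 0.28 and 0.76 to -0.51 and -0.18 with the correction.

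Maturation from D0 to D6 raised 5 of the 8 tested genes in WT cells of the BAZ1B experiment and 4 in KO cells, all by less than 1.4 times. SMARCA5 had the largest change in both. BAZ2B fell in KO, and BAZ1B and BPTF passed the test in neither. These counts stand against a background in which 68.9% of all genes in WT and 67.7% in KO were called, 33.5% and 33.2% as higher and 35.4% and 34.5% as lower. D0 and D6 libraries did not overlap for 7 of the 8 in WT and 6 in KO. The same held for most genes, 10824 of all 13879 in WT and 9434 in KO.

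SMARCA5 had 8398, 8019 and 7987 normalized counts in WT replicates 1 to 3 at D0 and the values given above at D6. In KO it had 8221, 8142 and 8282 at D0. The D6 libraries were above the D0 libraries in both genotypes without overlap. The log2 fold change was 0.34 (SE 0.0362, adjusted p = 2.34e-06) in WT and 0.48 (SE 0.0362, adjusted p = 1.00e-07) in KO.

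RSF1, another partner of SMARCA5, rose by 0.26 on the log2 scale in WT (adjusted p = 9.69e-05) and by 0.41 in KO (adjusted p = 1.85e-06). Its WT libraries had 2230, 2401 and 2236 normalized counts at D0 and 2747, 2734 and 2749 at D6. Its KO libraries reached 2751, 2747 and 2943 at D6, so D0 and D6 did not overlap in either genotype. BAZ1A rose by 0.15 in WT (adjusted p = 0.00236) and by 0.19 in KO (adjusted p = 0.000422). BAZ2A rose by 0.19 (adjusted p = 0.00229) and 0.20 (adjusted p = 0.00171). CHRAC1 rose by 0.15 in WT (adjusted p = 0.00652) and had 0.09 in KO (adjusted p = 0.0849).

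BAZ2B had a log2 fold change of -0.20 in WT (adjusted p = 0.0565) and fell by 0.35 on the log2 scale in KO (adjusted p = 0.00322). For BAZ1B the value was -0.09 in WT (adjusted p = 0.250, of 0.0204 to 0.453 over its alternatives) and -0.07 in KO (adjusted p = 0.386), and its D6 libraries in WT, at 9104 to 9429, lay below those of D0, at 9703 to 9913. BPTF was at 0.00 in WT and 0.01 in KO (adjusted p = 0.993 and 0.885). With the correction for transcript length and GC content, however, BPTF was called at 0.24 (adjusted p = 3.23e-06) in WT and 0.19 (adjusted p = 2.80e-05) in KO, where over its 20 alternatives the adjusted p went up to 1 and 0.945. In a fit of the WT libraries alone, BAZ1B was called as lower at D6 (-0.087, adjusted p = 0.0204), and so was BAZ2B. In fits without a single library, BAZ1B was called in KO without KO replicate 1 of D0 (-0.15, adjusted p = 0.0233, the lowest of its alternatives), BAZ2B in WT without KO replicate 1 of D0 or KO replicate 2 of D6 (adjusted p = 0.0176 and 0.0408, of 0.00327 to 0.388 over all), and CHRAC1 in KO without WT replicate 1 of D6 (adjusted p = 0.0409, of 0.0409 to 0.197). The length and GC correction also moved BAZ2A to 0.41 and 0.36 and BAZ1A in WT to 0.24, and turned BAZ1B to 0.077 and 0.041 (adjusted p = 0.300 and 0.592).

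**Figure D4:**
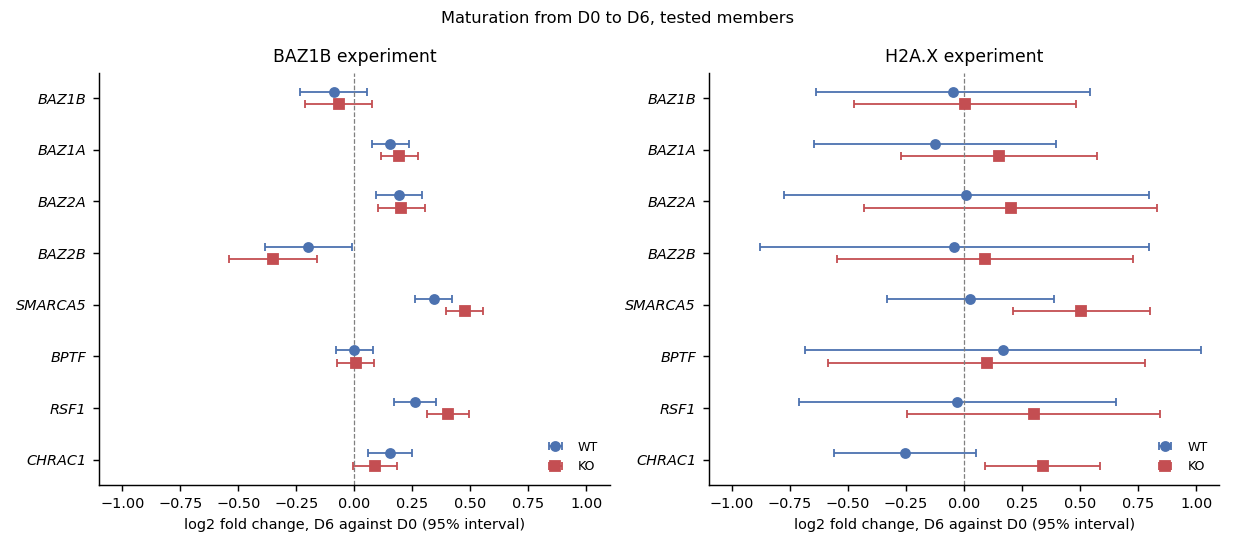
Log2 fold change of D6 against D0 (horizontal axis) with its 95% interval for the 8 tested genes, in WT (blue circles) and KO (red squares) of the BAZ1B experiment (left) and the H2A.X experiment (right), on the same scale. SMARCA5 is highest at left, at 0.34 and 0.48, and at right the intervals are wider and those of SMARCA5 (0.51) and CHRAC1 (0.34) in KO lie above 0.

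The SMARCA5 promoter (RefSeq, GRCh38.p14, chr4:143513452-143513701, plus strand) is shown because SMARCA5 changed most with maturation. Capitals mark TTATCT, the reverse complement of the GATA site AGATAA, at 182 bases before the start, and CCGCCC, the GC box on the other strand, at 94 and 41 bases.
SMARCA5 promoter: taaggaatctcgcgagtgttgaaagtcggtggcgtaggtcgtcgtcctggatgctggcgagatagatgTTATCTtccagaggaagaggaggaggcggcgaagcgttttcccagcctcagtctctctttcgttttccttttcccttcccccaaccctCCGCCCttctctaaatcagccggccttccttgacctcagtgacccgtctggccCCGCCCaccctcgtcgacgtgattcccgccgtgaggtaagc
AGATAA was found in this promoter alone among the 7, and in 9.17% of all 35116 promoters on either strand. The match describes these letters and is no evidence of binding.

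Among the 14 further partners, 7 were higher and 5 lower at D6 in WT of the BAZ1B experiment, and among the 27 other ATPases 9 were higher and 8 lower. Of all genes, 68.9% were called in this comparison, 33.5% as higher and 35.4% as lower. LUZP1, known from complexes with CECR2, had the lowest adjusted p of the partners and fell by 1.90 on the log2 scale (adjusted p = 4.55e-09). HMGXB4, an HMG-box protein, rose by 0.70 (adjusted p = 8.53e-08), POLE3 rose by 0.37 (adjusted p = 6.92e-07) and PCNA, the replication clamp that recruits WSTF, by 0.51 (adjusted p = 6.81e-07). Of the ATPases, SMARCA2 fell by 0.76 (adjusted p = 4.52e-09) and HLTF, a replication fork translocase, rose by 0.81 (adjusted p = 5.01e-09).

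Genes whose levels followed those of BAZ1B and SMARCA5 most closely over the 12 libraries were sought among 10922 genes, all with mean normalized counts of 50 or more. For BAZ1B they were ZNF583 (Pearson's r = 0.964), ZNF701 (0.953) and ZNF548 (0.952), with 0.697, 0.914 and 0.0958 over the 10 libraries of the H2A.X experiment. For SMARCA5 they were PTP4A2 (0.995), CCDC25 (0.992) and HPS1 (0.992), with -0.0813, 0.0476 and 0.0328. Genes were picked for this likeness and libraries share groups of genotype and day, so these are descriptions.

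In the H2A.X experiment the libraries stood apart in a way that bears on every KO comparison. Redo stands in the column names of 5 KO libraries, while those of KO replicate 3 at D6 and of all WT libraries lack it. The deviation of a library from the mean over libraries followed transcript length with a Spearman's rho over 9365 genes of 0.392 to 0.512 in the Redo libraries, 0.176 in KO replicate 3 at D6 and -0.645 to -0.387 in WT. In the BAZ1B experiment this value lay between -0.109 and 0.1. The log2 fold change of H2A.X KO itself followed length with a rho over 12017 genes, which are not independent, of 0.544 (D0) and 0.601 (D6). All tested members but CHRAC1 (2481 bp) have long transcripts, of 5729 bp (BAZ1A) to 11242 bp (RSF1). At D0, the Redo mark and the genotype cannot be told apart. The targeted gene, listed as H2AFX, was lower in KO at both days (adjusted p = 0.0304 at D0, and log2 fold change -1.52, adjusted p = 0.0233, at D6).

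**Figure D5:**
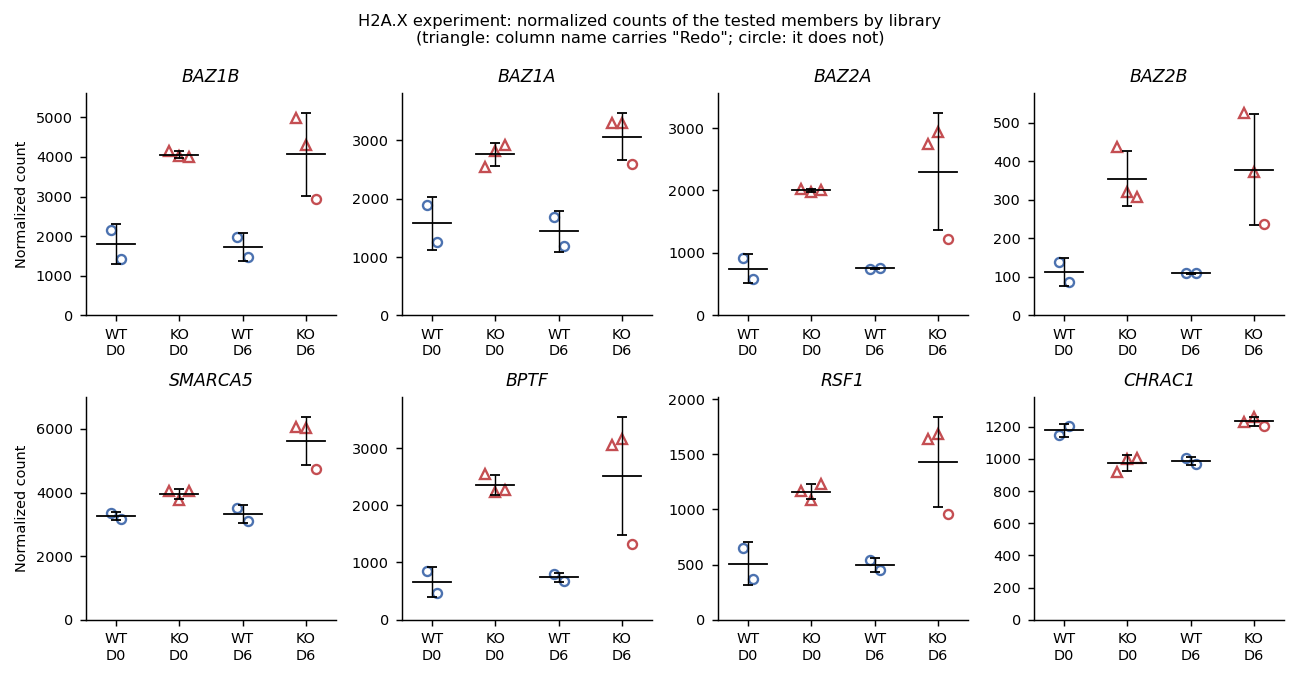
Normalized counts (vertical axis, from 0) of the 8 tested genes in the 10 libraries of the H2A.X experiment, by genotype and day. Triangles are libraries with Redo in the column name and circles those without (blue WT, red KO), and black lines are the mean and SD of 2 WT or 3 KO libraries. For BPTF the Redo libraries lie between 2230 and 3153, KO replicate 3 at D6 at 1326 and WT between 468 and 848.

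As deposited, 6 of the 8 genes were higher in H2A.X KO at D0, where 35.1% of all 13236 genes were called and 18.4% as higher. At D6, 7 of the 8 were higher, where 43.1% of all genes were called and 22.2% as higher. The median log2 fold change of the 8 was 1.18 and 1.37, against 0.01 and -0.01 over all genes. With the length and GC correction the medians of the 8 became 0.457 and 0.509, against 0.032 and 0.034 over all genes. The calls among the 8 became 3 higher and 1 lower at D0 and 5 higher at D6, where the correction left 21.7% and 21.6% of all genes called. KO and WT libraries did not overlap for any of the 8 at either day, as for 70.3% and 63.3% of all genes. An unadjusted p below 0.05 was found for 6 and 8 of the 8, against 6229 and 6910 of all 13236 genes. None of the 8 passed the stricter cutoff on the adjusted p in edgeR, as 0.166% and 0.151% of all genes did. DESeq2 put 2 at D0 and 4 at D6 past it, where its share of all genes is not given here. With the same cutoff on the unadjusted p, edgeR put BAZ2B and BPTF past it at D0 and BAZ2A, BAZ2B, BPTF and RSF1 at D6, 2 and 4 of the 8, against 3.88% and 5.53% of all genes.

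BAZ1B had 2149 and 1435 normalized counts in WT replicates 1 and 2 at D0 and 4161, 4021 and 3994 in KO. At D6 it had 1984 and 1480 in WT and 4971, 4298 and 2928 in KO. Every KO library was above every WT library, and KO replicate 3 at D6 was the lowest of KO. The log2 fold change was 1.18 (SE 0.251, adjusted p = 0.00943) at D0 and 1.23 (SE 0.252, adjusted p = 0.00551) at D6, and with the length and GC correction 0.64 (adjusted p = 0.0247) and 0.61 (adjusted p = 0.0307).

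BAZ1A had 1897 and 1252 normalized counts in WT replicates 1 and 2 at D0 and 2544, 2808 and 2922 in KO, and 1691 and 1195 in WT and 3300, 3286 and 2595 in KO at D6. The groups did not overlap at either day. Its log2 fold change was 0.81 (adjusted p = 0.0193) at D0 and 1.08 (adjusted p = 0.00547) at D6, and with the correction 0.27 (adjusted p = 0.203) and 0.38 (adjusted p = 0.0868). Unlike in BAZ1B KO, its share of the per-kb sum of both paralogs was lower in KO than in WT at D0 (42.0% ± 2.26, n = 3, against 48.4% ± 0.202, n = 2; exact permutation test, p = 0.1, the smallest it allows), and 45.0% ± 3.57 against 47.0% ± 0.940 at D6 (p = 0.6).

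BPTF, the large subunit of NURF, had 848 and 468 normalized counts in WT replicates 1 and 2 at D0 and 2549, 2230 and 2266 in KO. At D6 it had 798 and 680 in WT and 3057, 3153 and 1326 in KO. KO replicate 3 at D6 lay closer to WT than to the other KO libraries. The log2 fold change was 1.83 (SE 0.370, adjusted p = 0.00852) at D0 and 1.76 (SE 0.370, adjusted p = 0.00584) at D6, and with the correction 0.86 (adjusted p = 0.0243) and 0.75 (adjusted p = 0.0391).

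BAZ2A had a log2 fold change of 1.42 (adjusted p = 0.0127) at D0 and 1.61 (adjusted p = 0.00600) at D6, and with the correction 0.66 (adjusted p = 0.0678) and 0.82 (adjusted p = 0.0369). BAZ2B had 1.65 (adjusted p = 0.00927) and 1.78 (adjusted p = 0.00508), and with the correction 0.84 (adjusted p = 0.0357) and 0.81 (adjusted p = 0.0434). RSF1 had 1.19 (adjusted p = 0.0132) and 1.52 (adjusted p = 0.00470), and with the correction 0.19 (adjusted p = 0.368) and 0.41 (adjusted p = 0.0708). Thus BAZ1B, BAZ2B and BPTF passed the test at both days with and without the correction. Over all alternatives, the adjusted p of these 3 genes reached 0.119 at D0 and 0.091 at D6, and that of BAZ1A, BAZ2A and RSF1 reached 0.402 and 0.0961.

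SMARCA5 turned its direction with the correction. It had 3348 and 3167 normalized counts in WT replicates 1 and 2 at D0 and 4037, 3773 and 4058 in KO, and 3523 and 3112 in WT and 6059, 6042 and 4744 in KO at D6. As deposited the log2 fold change was 0.28 (adjusted p = 0.162) at D0 and 0.76 (adjusted p = 0.00506) at D6, whereas with the correction it was -0.51 (adjusted p = 0.0118) and -0.18 (adjusted p = 0.229), the adjusted p reaching 0.436 and 0.229 over the alternatives.

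CHRAC1, with the shortest transcript, was the gene least moved by the correction. It had 1148 and 1207 normalized counts in WT replicates 1 and 2 at D0 and 919, 1002 and 1003 in KO, and 1004 and 970 in WT and 1231, 1259 and 1207 in KO at D6. The groups did not overlap, with KO below WT at D0 and above it at D6. Neither day passed the test as deposited (-0.27, adjusted p = 0.109, and 0.32, adjusted p = 0.0627), and D6 passed with the correction (0.35, adjusted p = 0.0404), with DESeq2 (adjusted p = 0.013) and without KO replicate 3 of D6 (adjusted p = 0.0341), the range over its alternatives being 0.013 to 0.256.

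At D6, KO replicate 3 and both WT libraries lack the Redo mark, although their length rho differed (0.176 against -0.643 and -0.641), and what the mark stands for is not given in the sources used here. In these libraries the ratio of KO to the WT mean was 1.69 for BAZ1B, 1.80 for BAZ1A, 1.62 for BAZ2A, 2.15 for BAZ2B, 1.43 for SMARCA5, 1.79 for BPTF, 1.92 for RSF1 and 1.22 for CHRAC1. The median log2 fold change was 0.81 over the 8 genes and -0.01 over all genes. These values rest on 1 KO library, and their dependence on transcript length was not tested. The share of all genes with KO above the higher WT library was not computed. With the lone KO library assumed to vary like the other groups, none of the 8 passed the test in edgeR (adjusted p = 0.0658 to 0.207), against 714 of all genes. The calls at D0 also rested on WT replicate 2, without which 0 of the 8 and 77 of all genes were called at D0. Those of D6 rested on WT replicate 2 of D6 in the same way, with 0 of the 8 and 152 of all genes left, while without KO replicate 3 of D6 all 8 were called. BAZ1A at D0 was also lost without KO replicate 3 of D0 (adjusted p = 0.057).

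Over maturation in the H2A.X experiment, none of the 8 genes was called in WT by edgeR or DESeq2, where 2% of all genes were called. None of the 8 had an unadjusted p below 0.05, against 2796 of all 13236 genes. The log2 fold changes of the 8 lay between -0.25 and 0.17. In KO, where 30.9% of all genes were called and 14.8% as higher, SMARCA5 rose by 0.51 (SE 0.132, adjusted p = 0.0165) and CHRAC1 by 0.34 (SE 0.112, adjusted p = 0.0423). With the subclone as a replicate block CHRAC1 was no longer called (0.34, adjusted p = 0.0502, between 0.00567 and 0.278 over its alternatives), which left 1 of the 8. Both calls were lost without any of KO replicates 1, 2 and 3 of D0 or replicates 1 and 2 of D6, and 3 of the 8 were called without KO replicate 3 of D6. CHRAC1 was also lost without either WT library of D6.

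The KO effect differed between D6 and D0 for none of the 8 genes by edgeR, where 1.34% of all genes were called. An unadjusted p below 0.05 was found for 2 of the 8, against 2016 of all 13236 genes. For CHRAC1 the effect was higher at D6 by 0.59 on the log2 scale (SE 0.177, adjusted p = 0.143), and DESeq2 called it (0.61, adjusted p = 0.0124), the range over its 17 alternatives being 0.0124 to 0.380. For SMARCA5 it was higher by 0.48 (SE 0.209, adjusted p = 0.314).

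As deposited, of the 14 partners in H2A.X KO, 6 were higher and 2 lower at D0 and 7 higher at D6, and of 26 tested ATPases of other families, 19 were higher and 1 lower at D0 and 18 higher and 1 lower at D6, where 35.1% and 43.1% of all genes were called at D0 and D6. With the length and GC correction, which left 21.7% and 21.6% of all genes called, the partners had 1 higher and 1 lower at D0 and 4 higher and 1 lower at D6. The ATPases then had 8 higher and 2 lower at D0 and 6 higher and 1 lower at D6, with medians of 0.33 and 0.22. As deposited, LUZP1 rose by 1.90 at D0 (adjusted p = 0.00726) and HMGXB4 by 1.13 at D6 (adjusted p = 0.00402). SRCAP, the ATPase that deposits H2A.Z, had 2.43 (adjusted p = 0.00523) at D0 and 2.62 (adjusted p = 0.00361) at D6. CHD4 of NuRD fell by 1.44 at D6 (adjusted p = 0.00354) and PCNA fell by 0.77 at D0 (adjusted p = 0.00935). Before the correction, the median over these ATPases was 0.97 at D0 and 0.92 at D6, against 1.18 and 1.37 for the 8 genes.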

How the data were processed

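RNA-Seq of HUDEP-2 cells was used. The deposited tables hold raw counts, which the authors had not normalized, with a row for each gene name and a column for each library (single-end reads). Per the labels, tools were STAR 2.7.0f, featureCounts of Subread 1.6.4 and DESeq2 1.22.1, with build hg38. Kit (stranded or not) and read length differ between sources, and the strand setting is not given in the sources used here. No column of the tables was left unused.

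Counts were tested in R 4.3.3 with edgeR 4.0.16: filterByExpr (minimum count 10, minimum total 15), TMM, 1 coefficient per genotype and day, and the two-sided quasi-likelihood test on the libraries of 1 experiment, with Benjamini-Hochberg adjustment over all tested genes and calls at 0.05. The biological coefficient of variation was 0.0865 in the BAZ1B and 0.239 in the H2A.X experiment. The SE came from the F statistic. Lengths and positions came from GENCODE 44 (GRCh38), where 36434 names matched by name and 759 by an older one. The alternatives were RLE factors, leaving out globin genes, DESeq2 1.42.0, no filter, the compared groups alone, a length and GC correction (a smooth offset by mgcv 1.9.3), a replicate block, the last 2 together, and each library left out. Comparing the D6 libraries without Redo was chosen after seeing the data. All 10 members are named, and of the lists of 14 partners and 27 ATPases those with the lowest adjusted p. Members and lists were chosen with earlier results of these data known.

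Deviations of same-numbered D0 and D6 libraries correlated by 0.297 to 0.572 in the H2A.X experiment. In its WT, with 2 libraries per day, each number gives the same value (0.499) by construction. Differently numbered libraries were not compared, so whether numbers pair subclones over days was not tested. In the BAZ1B experiment the correlation was 0.514, 0.55 and 0.0936 for KO1 to KO3, which carry 1 subclone name over days. It was 0.00756 to 0.177 in BAZ1B WT, where the replicate is only a number, as it is between KO and WT of 1 day (-0.104 to 0.217). The block was the replicate number for KO against WT and the subclone, taken as genotype and number, for the other comparisons. P-values measure the spread between subclones or cultures. On simulated data, edgeR called 43 of 66 genes with a log2 change of 0.8 at D0 of the BAZ1B experiment (13567 genes). It called 8 of 64 at D0 of the H2A.X experiment (12879 genes), with 9 of 13372 and 6 of 12685 unchanged genes. The simulated libraries had no effect of transcript length, unlike those of the H2A.X experiment. These rates therefore do not carry over to H2A.X KO against WT. Counts are reads without molecular identifiers, so limits cover counting error only. A further erythroid marker is not reported here.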

Additional observations from a re-analysis of the deposited data

How the results depend on the processing

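Of 31 calls among the tested genes, 547 of 597 values under alternatives kept direction and call, 48 lost the call and 2 reversed. The 6 calls of BAZ1B KO against WT kept theirs in 116 of 120 values, and the 13 of H2A.X KO in 209 of 241. These values include fits without a library that was not in the compared groups, which leave the compared libraries whole.

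With the length and GC correction, SMARCA5 in H2A.X KO reversed to -0.51 at D0 and -0.18 at D6, and with the replicate block added to -0.54 and -0.21. In all, 89 of 1512 alternative values of the 8 genes had the other sign, and of these 2 passed the test, both of SMARCA5 at D0. Among values given by gene above, the others were, with that correction, alone or with the block, BAZ2A in BAZ1B KO at D0 (0.018 and 0.018) and BAZ1B over maturation in WT (0.077 and 0.077) and KO (0.041 and 0.046) of the BAZ1B experiment. Without a filter BPTF over maturation in WT was -0.0024. With a library left out, BPTF over maturation ranged from -0.012 to 0.019 in WT and -0.026 to 0.030 in KO, BAZ1B in KO from -0.15 to 0.028, BAZ2A in BAZ1B KO from -0.063 to 0.0093 at D0 and -0.045 to 0.014 at D6, and CHRAC1 at D6 from -0.075 to 0.0031.

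Counts over all genes moved more. In BAZ1B KO at D0, 539 genes became 1201 without a filter. The difference between days, 343 genes, became 700 in DESeq2, 987 without a filter, 718 with the block and 764 with block and correction. In H2A.X KO, 4651 genes at D0 became 2602 with the correction. The 5701 at D6 became 2590 with it, 3405 with block and correction, 3731 in the compared groups alone, and 714 with 0 of the members in D6 libraries lacking the Redo mark. Over maturation in H2A.X WT, 265 genes became 1067 in DESeq2, 1271 without a filter, 503 in the compared groups alone, 1127 with the block and 808 with block and correction. The difference between days in H2A.X KO, 177 genes, became 680, 1007, 552 and 537 in DESeq2, without a filter, with the block and with block and correction, and DESeq2 called 1 member there. Members past the stricter cutoff on the adjusted p in H2A.X KO were 2 at D0 and 4 at D6 both in DESeq2 and without a filter. Over maturation in H2A.X KO, members called went from 2 to 1 without a filter and with the replicate block.

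With each library left out in turn, genes called in BAZ1B KO ranged from 258 to 1323 at D0, highest without KO replicate 1 of D0, and from 1112 to 2443 at D6, and those of the difference between days from 119 to 765. In H2A.X KO they ranged from 77 to 5642 at D0 and 152 to 6656 at D6, over maturation from 1 to 655 in WT and 2641 to 4871 in KO, and for the difference from 6 to 851. Members called ranged from 0 to 6 at D0, 0 to 8 at D6 and 0 to 3 over maturation in KO, and those past the stricter cutoff from 0 to 4 at D6. The replicate block alone changed no call of a gene described above other than CHRAC1 above and BAZ2B over maturation in BAZ1B WT (-0.20, adjusted p = 0.0418, of 0.00327 to 0.388 over its alternatives).

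Limits: the H2A.X experiment has 2 WT libraries per day, lower depth and a coefficient of variation of 0.239 against 0.0865, and the Redo mark moves with its genotype.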
